A study of Danio rerio with 8 samples.

Results

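The genes described here encode opsins, the cascade that turns their activation by light into an electrical signal, and the enzymes and carriers that restore their retinal chromophore. They were taken by symbol from a table of read counts in whole zebrafish (Danio rerio) embryos: all rows whose symbol began with opn and a digit, rgr, gnat, pde6, cnga, cngb, grk1, grk7, rcv, arr3, guca1, gucy2, rpe65, rlbp1, rbp4l, tmtop, valop or exorh, and a few exact symbols such as saga and sagb. The rule found 65 of 31953 genes, and no row began with exorh, the symbol of a pineal opsin.

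The embryos had been kept in high glucose (3 libraries), in high salt (2 libraries) or in control medium (3 libraries), each for 72 h before bulk RNA sequencing. The sources used here give neither the glucose and salt concentrations nor the strain, the number of embryos in a sample or any age beyond the 72 h in culture. Column names of the table end in 1m, 2f or 2m, without 2f among the salt columns. No source explains these endings, and libraries are named by group and suffix. No label ties the replicates to separate clutches, and p-values therefore reflect the spread of these libraries alone, which could be technical.

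In a photoreceptor, light changes the shape of the chromophore bound to an opsin. The opsin then activates transducin, transducin activates a phosphodiesterase that breaks down cGMP, and cGMP-gated channels close. Opsin kinases, arrestins and the guanylate cyclases with their calcium-binding activators end the response, and recoverin restrains the kinases. Retinal pigment epithelium and Müller glia return the chromophore to its light-sensitive form through enzymes and carriers such as RPE65, RGR and CRALBP. Zebrafish also carry many non-visual opsins, expressed in brain, pineal and other tissues outside the photoreceptor layer.

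The gene set took a small share of each library. Library totals ran from 14.65 M to 17.32 M counts, so that 3 counts stood for 0.171 to 0.226 CPM (a gene's counts relative to a common scaled total). The 65 genes held 2202 to 2858 counts per library, or 0.0135% to 0.0192% of the total. Of the 65 genes, 30 averaged at least 1 CPM, 10 had fewer than 10 counts over all 8 libraries together, and cnga5 had none. A filter on low counts left 43 genes to be tested, and the 22 below it are given by their counts only. Control 1m and salt 2m stood apart from the rest, with a highest correlation to any other library of 0.943 and 0.941 against 0.955 to 0.976 for the others.

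Over all 43 tested genes few differences passed the test, which was edgeR's quasi-likelihood F-test with Benjamini-Hochberg adjustment over the 20562 tested genes of the table, at an adjusted p of 0.05. Between high glucose and control it called none of the 43 higher and none lower, where 0% and 0% of all tested genes were called. Without adjustment 2 genes were higher and 5 lower at a p below 0.05, where the shares over all tested genes were 1.85% and 4.12%. DESeq2 called 2 of the set lower (0.452% of all tested genes) and none higher, and limma voom called none of the set and no other gene. Between high salt and control none was higher (2.94% of all tested genes) and 2, rgra and opn5, were lower (2.41%). At an unadjusted p 9 were higher and 4 lower (12.4% and 13.5% of all tested genes), DESeq2 called 3 higher and 2 lower (6.98% and 6.8%), and limma voom none higher and 2 lower (2.2% and 1.29%). Between high glucose and high salt none was higher (1.9%) and 1, grk1a, was lower (3.05%). At an unadjusted p 2 were higher and 7 lower (11.9% and 12.6%), DESeq2 called 1 higher and 6 lower (5.74% and 7.05%), and limma voom none higher and 1 lower (0.992% and 2.15%). The median log2 fold change of the 43 genes was 0.06 for glucose against control, -0.08 for salt against control and -0.15 for glucose against salt, with 23, 20 and 17 genes above 0. Over all tested genes these medians were -5.87e-05, -0.04 and 0.04. With the column suffix as a replicate block, which the paired deviations of same-suffix libraries allow, 0 of the set were higher in glucose than in control (0.0195% of all tested genes) and 2 lower (0.156%), 2 were higher in salt than in control (5.91%) and 2 lower (6.49%), and 1 was higher in glucose than in salt (4.31%) and 2 lower (4.72%). The comparisons share libraries, so their values are not independent of each other.

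**Figure D1:**
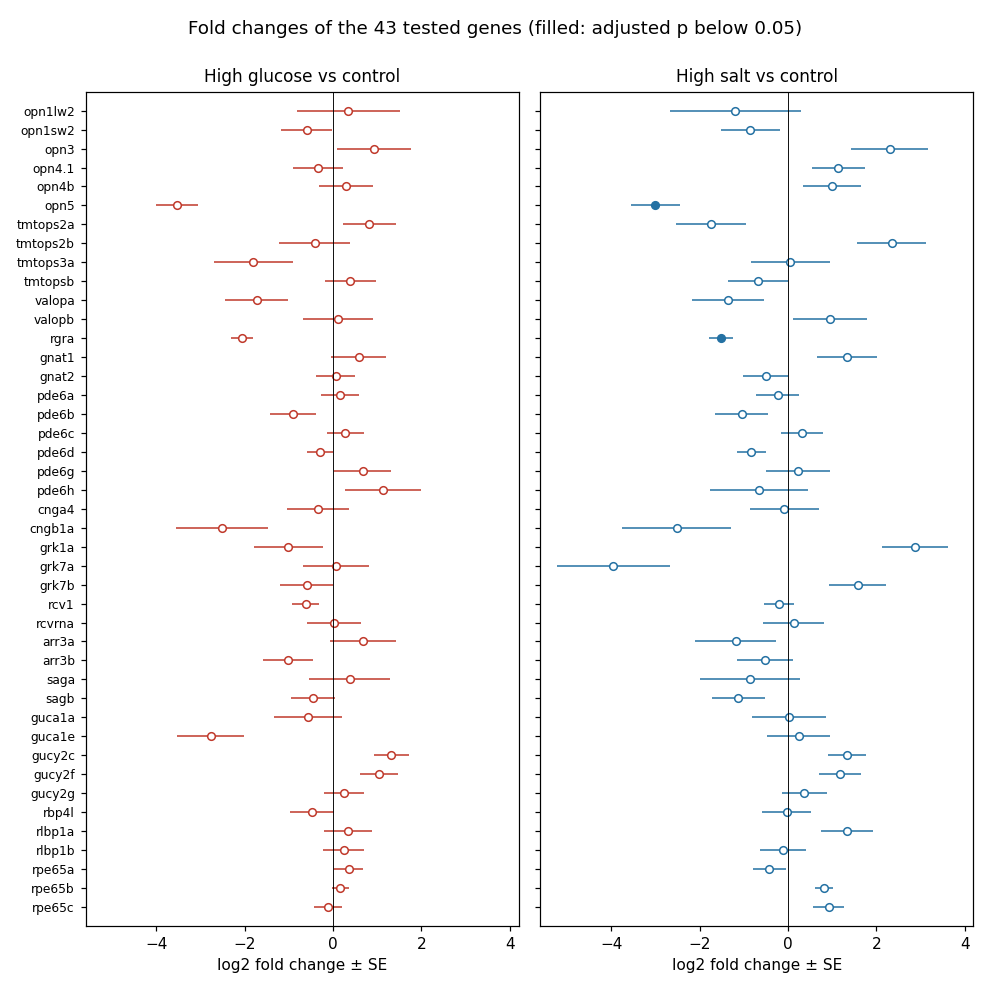
Log2 fold changes with standard errors (x axis) of the 43 tested genes (rows, ordered by role) for high glucose against control (left) and high salt against control (right); filled points passed an adjusted p of 0.05 in edgeR's quasi-likelihood test. Only opn5 and rgra are filled, in the salt panel, and they also lie far to the left in the glucose panel, at -3.53 and -2.06.

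Levels differed widely between the roles, compared as CPM per kb of the gene length given in the table. The gene rpe65b, a zebrafish copy of the retinoid isomerase RPE65, stood highest with a mean of 31.6 CPM per kb. It was followed by rgra at 11.7, pde6d at 7.06, rpe65c at 5.25 and rpe65a at 2.73 CPM per kb. The highest genes of the remaining roles were rcv1 at 2.17, arr3a at 2.16, opn5 at 1.78, grk7b at 1.48, opn1sw2 at 0.917, gucy2g at 0.695, cngb1a at 0.584 and gnat1 at 0.576 CPM per kb. Of the counts of the whole set, rpe65b alone held 45.5%, 37.9% and 38.0% in glucose 1m, 2f and 2m, 46.3% and 47.8% in salt 1m and 2m, and 32.2%, 29.3% and 31.6% in control 1m, 2f and 2m. All 5 treated libraries were thus above the 3 control libraries in this share. The share also depends on the other genes of the set, among them rgra, with 84 to 130 counts in treated and 336 to 458 in control libraries. The level of rpe65b itself overlapped between glucose (52.4 to 60.7 CPM) and control (43 to 56 CPM).

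**Figure D2:**
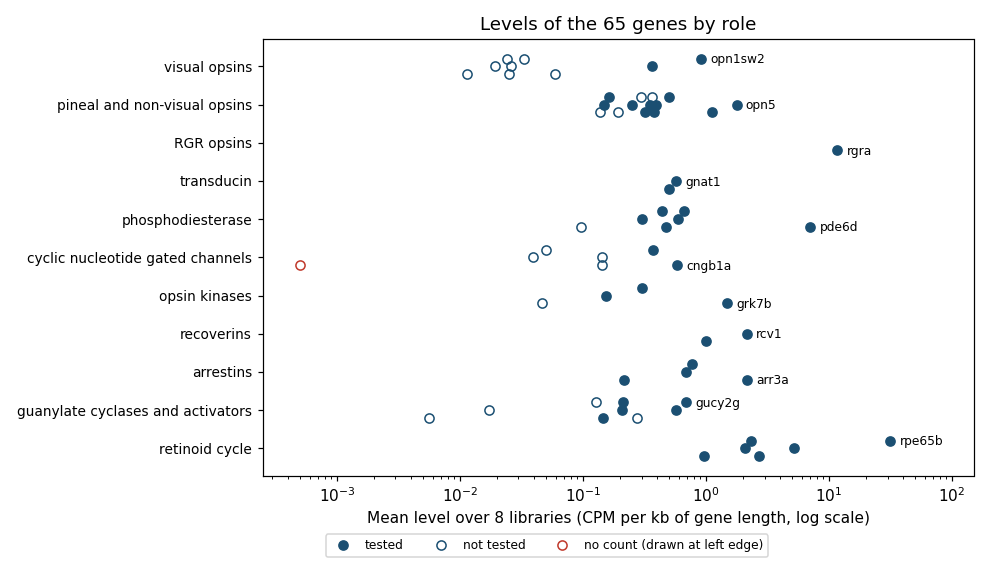
Mean level of each of the 65 genes over all 8 libraries (x axis, CPM per kb, log scale), by role (y axis); filled points were tested, open points did not pass the filter on low counts, and the red point is cnga5, which had no count. The retinoid cycle genes and rgra lie to the right, and most visual opsins lie below 0.1 CPM per kb.

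The visual opsins, the light sensors of image-forming vision, were close to the detection limit in all groups. All 9 together had 24, 59 and 34 counts in glucose 1m, 2f and 2m, 31 and 19 counts in salt 1m and 2m, and 25, 75 and 39 counts in control 1m, 2f and 2m. Most of these counts belonged to opn1sw2, the blue cone opsin, and opn1lw2, a red cone opsin. Without that pair the other 7 had 3 to 10 counts per library.

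The blue opsin opn1sw2 had 17, 27 and 16 counts in glucose 1m, 2f and 2m, 21 and 8 in salt 1m and 2m, and 22, 52 and 16 in control 1m, 2f and 2m. The groups overlapped, and its log2 fold changes of -0.59 ± 0.58 (glucose against control) and -0.85 ± 0.67 (salt against control) had adjusted p of 0.815 and 0.456 (edgeR; ± is the standard error of a log2 fold change here and below). The UV cone opsin opn1sw1 had at most 2 counts in any library and 6 in all. The 4 green cone opsins, which the table places together on chromosome 6, had 9 (opn1mw1), 5 (opn1mw2), 4 (opn1mw3) and 2 (opn1mw4) counts over the 8 libraries. Of the 9 counts of opn1mw1, 5 were in salt 1m. The other red opsin, opn1lw1, had 13 counts in all. How reads shared by the green opsin copies or by opn1lw1 and opn1lw2 were counted was not given, and the split between such copies is uncertain.

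The table held all 41 of a list of photoreceptor markers that the rule did not take (transcription factors, outer segment proteins, transducin subunits and others), of which 24 were tested. Their summed level was 102, 150 and 164 CPM in the glucose libraries, 86.3 and 106 CPM in the salt libraries and 110, 95.5 and 134 CPM in the control libraries, with 3 to 8 of the 41 at 0 counts in a library. The highest were neurod1, a transcription factor gene also of other neurons, at 12.6 to 51 CPM, unc119b at 16.5 to 31 CPM and thrb, a thyroid hormone receptor gene, at 5.58 to 38.5 CPM over the 8 libraries. Together neurod1, unc119b and thrb held most of the sum in every library. The outer segment genes prph2a, prph2b, rom1a and rom1b had 0 to 8 counts in a library. The gene crx, which encodes a transcription factor of photoreceptors, had 0.228, 3.01 and 5.33 CPM in glucose 1m, 2f and 2m, 1.15 and 0.377 CPM in salt 1m and 2m, and 0.65, 0.671 and 3.84 CPM in control 1m, 2f and 2m. The interphotoreceptor retinoid-binding protein gene rbp3 had 0.799, 1.38 and 2.44 CPM in the glucose libraries, 1.02 and 1.81 CPM in the salt libraries and 0.13, 0.488 and 1.28 CPM in the control libraries. The groups overlapped for both genes. Against control, edgeR called 0 of the 24 in glucose and 0 in salt. Over all tested genes 2.94% were called higher and 2.41% lower in salt, and none in glucose. At an unadjusted p 1 was higher and 3 were lower in glucose (1.85% and 4.12% of all tested genes). In salt 0 were higher and 3 lower (12.4% and 13.5%). In these bulk samples fewer cells of a type and less RNA per cell cannot be told apart.

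Among the opsins outside image-forming vision, rgra, opn5 and valopa had lower levels in every treated library than in every control library. Of all tested genes 7.67% lay wholly below control in glucose and 20.6% in salt, and the share in both was not counted. For valopa, given further below, neither difference passed edgeR's test. Both rgra and opn5 passed it in salt, and in glucose both missed the threshold without the replicate block and passed it with the block. The gene rgra (ENSDARG00000054890, chromosome 13 in the table) encodes a copy of RGR, an opsin of retinal pigment epithelium and Müller glia that in mammals converts retinal to its light-sensitive form under illumination. It had 5.94, 7.02 and 5.26 CPM in glucose 1m, 2f and 2m, 7.88 and 9.81 CPM in salt 1m and 2m, and 29.8, 26.5 and 19.5 CPM in control 1m, 2f and 2m. No treated library reached the lowest control library. The means were 6.07 ± 0.887 CPM in glucose (SD, n = 3), 8.84 ± 1.37 CPM in salt (SD, n = 2) and 25.3 ± 5.23 CPM in control (SD, n = 3).

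For salt against control, rgra fell by 1.52 on the log2 scale (standard error 0.28, adjusted p = 0.0210, edgeR). For glucose against control the log2 fold change was -2.06 ± 0.24 with an adjusted p of 0.087, which misses the threshold although it ranked 2nd by p among the 20562 genes. With the replicate block the glucose value was -2.06 and its adjusted p 0.00829. It also passed without the count filter (0.0103) and without both libraries that stood apart (0.0335). The salt call was lost when the glucose libraries were left out of the fit (adjusted p = 0.0997) and when glucose 2f (0.0503) or control 2f (0.0654) was left out. It was also lost without salt 2m (-1.68) and without both libraries that stood apart (-1.53), fits that leave the salt group without a replicate. Over all alternatives the log2 value stayed between -2.21 and -1.92 for glucose and between -1.68 and -1.35 for salt.

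The gene opn5 (ENSDARG00000070110, chromosome 20 in the table) encodes neuropsin, a UV-sensitive opsin of brain and retina in birds and mammals. It had 12, 11 and 6 counts in glucose 1m, 2f and 2m, 18 and 6 counts in salt 1m and 2m, and 140, 104 and 87 counts in control 1m, 2f and 2m. As levels these were 0.583 ± 0.180 CPM in glucose (SD, n = 3), 0.838 ± 0.544 CPM in salt (SD, n = 2) and 6.84 ± 2.07 CPM in control (SD, n = 3). The highest treated library, salt 1m at 1.22 CPM, lay well below the lowest control library, control 2m at 5.06 CPM.

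For salt against control, opn5 fell by 3.0 on the log2 scale (standard error 0.55, adjusted p = 0.0215, edgeR). For glucose against control the log2 fold change was -3.53 ± 0.48 with an adjusted p of 0.099, the 6th lowest p of all tested genes, and with the replicate block it was -3.54 with an adjusted p of 0.00829. It also passed without the count filter (0.0225) and without both libraries that stood apart (0.035). The salt call was lost when the glucose libraries were left out of the fit (adjusted p = 0.0912) and without glucose 2f (0.0518), control 2f (0.0636) or control 2m (0.0546). It was also lost without salt 2m (-2.47) and without both libraries that stood apart (-2.20), fits that leave the salt group without a replicate. For both genes DESeq2 called the glucose difference (adjusted p = 1.41e-10 for rgra and 1.33e-08 for opn5), and limma voom did not (0.0586 and 0.22). The fit over all libraries did not separate glucose from salt for either gene: the log2 fold change of glucose against salt was -0.54 ± 0.27 for rgra (adjusted p = 0.244) and -0.52 ± 0.55 for opn5 (adjusted p = 0.6).

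**Figure D3:**
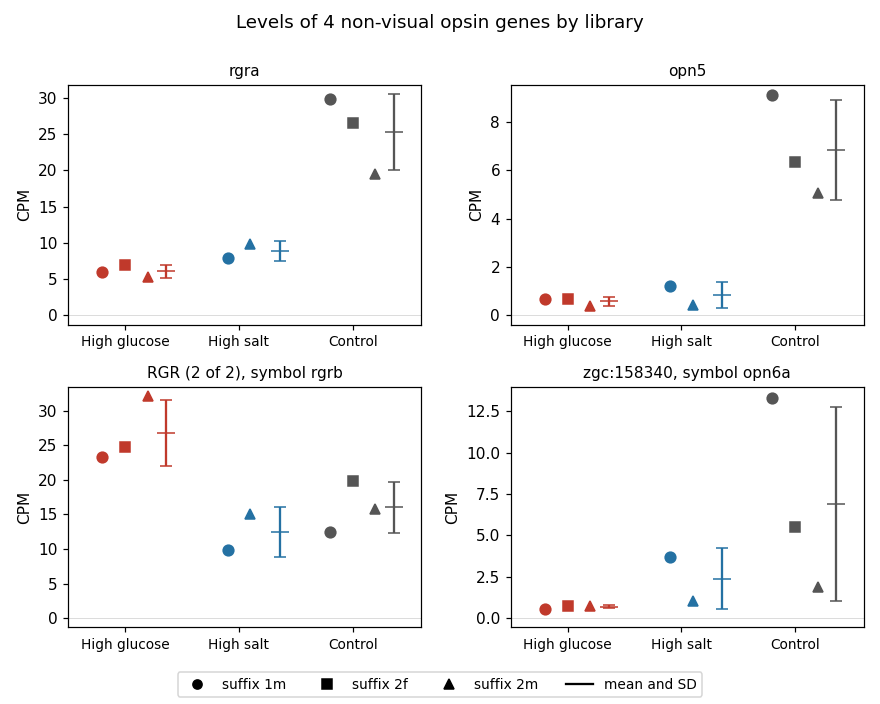
CPM (y axis) of rgra, opn5 and a pair of related genes carried under other names in the table, by library (points, shaped by column suffix) with the mean and SD of each group beside them. For rgra all 5 treated libraries lie between 5.26 and 9.81 CPM and the control libraries between 19.5 and 29.8 CPM, whereas RGR (2 of 2) is highest in glucose.

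The pineal and non-visual opsins, apart from rgra, numbered 14 genes, of which 10 were tested, and the median log2 fold change was -0.12 in glucose and 0.50 in salt against control. In edgeR's fit over all libraries opn5 was the 1 gene of this role called between groups. Summed over the 14, the level was 9.36, 8.90 and 9.96 CPM in glucose 1m, 2f and 2m, 13.4 and 14.2 CPM in salt 1m and 2m, and 19.2, 14.1 and 15.1 CPM in control 1m, 2f and 2m. Of the control sums, opn5 alone held 9.1, 6.35 and 5.06 CPM, against 0.376 to 0.69 CPM in glucose and 1.22 and 0.453 CPM in salt.

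Melanopsins are the opsins of light-sensitive ganglion cells in mammals and of several brain cell types in fish. The highest of the melanopsin genes, opn4b, had 3.37, 0.752 and 1.13 CPM in the glucose libraries, 3.80 and 1.89 CPM in the salt libraries and 1.95, 1.40 and 0.931 CPM in the control libraries. The groups overlapped and the log2 fold changes were 0.30 ± 0.61 (glucose) and 1.0 ± 0.67 (salt), with adjusted p of 0.905 and 0.374. The melanopsin opn4.1 had 0.457, 0.564 and 1.38 CPM in glucose, 1.56 and 2.94 CPM in salt and 0.845, 1.28 and 0.931 CPM in control. Both salt libraries were above all others, and its log2 fold change of 1.14 ± 0.60 against control had an adjusted p of 0.265. The brain opsin opn3 (encephalopsin) had 0.514, 0.627 and 0.313 CPM in glucose, 1.70 and 0.830 CPM in salt and 0.585, 0.0610 and 0.116 CPM in control. Its 2 highest values were also those of salt, and the log2 fold change of 2.31 ± 0.87 against control had an adjusted p of 0.134.

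The teleost multiple tissue opsins, expressed in many fish tissues, differed in which group was highest. The gene tmtops2b had 7, 3 and 2 counts in glucose 1m, 2f and 2m, 12 and 34 counts in salt 1m and 2m, and 2, 7 and 7 counts in control 1m, 2f and 2m. Its log2 fold change of -2.77 ± 0.80 for glucose against salt had an adjusted p of 0.0743 (edgeR) and passed in 3 of 16 alternatives. Its close relative tmtops2a had 16, 36 and 23 counts in the glucose libraries, 2 and 5 in the salt libraries and 9, 10 and 24 in the control libraries. For tmtops2a the log2 fold change of glucose against salt was 2.56 ± 0.80 with an adjusted p of 0.0891. The brain opsin valopa (vertebrate ancient long opsin) had 0.228, 0.251 and 0.940 CPM in glucose, 0.475 and 0.755 CPM in salt and 2.73, 1.04 and 0.989 CPM in control. All 5 treated libraries were below the 3 control libraries, and neither difference passed (adjusted p = 0.761 and 0.321).

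The table carried 21 further genes of these families under clone names or older symbols, found through a table of gene identifiers after the names in the count table had been seen. Of these, 12 were tested, and none passed in edgeR in any of the 3 group comparisons. At an unadjusted p 3 were higher and 1 lower in glucose against control (1.85% and 4.12% of all tested genes), 3 higher and 1 lower in salt against control (12.4% and 13.5%), and 1 higher and 4 lower in glucose against salt (11.9% and 12.6%). The row RGR (2 of 2), whose symbol is rgrb, is the sister copy of rgra. It had 23.3, 24.8 and 32.2 CPM in glucose 1m, 2f and 2m, 9.85 and 15.0 CPM in salt 1m and 2m, and 12.5, 19.8 and 15.8 CPM in control 1m, 2f and 2m. All glucose libraries were above all others, in the opposite direction to rgra in the same embryos. Its log2 fold change was 0.74 ± 0.25 for glucose against control (adjusted p = 0.761) and 1.11 ± 0.29 for glucose against salt (adjusted p = 0.059). Under the replicate block the value against salt was 1.07 with an adjusted p of 0.0274.

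The row zgc:158340, symbol opn6a, had 10, 12 and 12 counts in the glucose libraries, 54 and 14 in the salt libraries and 205, 90 and 32 in control 1m, 2f and 2m. Its control libraries differed more among themselves than those of opn5, and the log2 fold change of -3.30 ± 0.74 for glucose against control had an adjusted p of 0.542. The rows si:dkey-260g12.4 (opn9) and si:busm1-234g15.3 (opn6b) had their highest values in salt, at 18 and 22 counts and at 27 and 89 counts, against 4, 0 and 4 and 16, 8 and 14 counts in control 1m, 2f and 2m.

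Transducin and the phosphodiesterase showed no called difference between groups. The rod transducin alpha gene gnat1 had 0.856, 1.13 and 1.25 CPM in glucose 1m, 2f and 2m, 2.24 and 1.43 CPM in salt 1m and 2m, and 0.195, 0.671 and 1.28 CPM in control 1m, 2f and 2m. Both salt libraries lay above all others, and the log2 fold change of 1.34 ± 0.68 against control had an adjusted p of 0.247. The cone transducin alpha gene gnat2 had 1.48, 1.32 and 1.5 CPM in glucose, 0.883 and 1.06 CPM in salt and 0.910, 1.71 and 1.51 CPM in control. Salt and control overlapped for gnat2 (log2 fold change -0.51 ± 0.50, adjusted p = 0.562).

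Of the phosphodiesterase genes pde6d was the highest, a chaperone for lipid-modified proteins that many tissues express. It had 8.22, 7.71 and 8.21 CPM in glucose, 5.57 and 5.51 CPM in salt and 12.5, 6.29 and 10.9 CPM in control. The salt libraries were the lowest, and the log2 fold change of -0.83 ± 0.33 against control had an adjusted p of 0.148. The cone catalytic subunit gene pde6c had 2.1 ± 0.558 CPM in glucose (SD, n = 3), 2.17 ± 0.395 CPM in salt (SD, n = 2) and 1.74 ± 0.608 CPM in control (SD, n = 3). For pde6b, named for a rod catalytic subunit, all treated libraries but glucose 2f (2.26 CPM) lay below the lowest control library (2.09 CPM), with log2 fold changes of -0.91 ± 0.52 and -1.05 ± 0.61 for glucose and salt (adjusted p = 0.761 and 0.305). The inhibitory subunit gene pde6g occurs as 2 rows, of which the longer was tested and the shorter had counts in glucose 1m (5) and salt 2m (4) only.

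Of the 7 channel genes 2 were tested. The gene cngb1a, for a beta subunit of the cGMP-gated channel, had 8, 3 and 8 counts in glucose 1m, 2f and 2m, 11 and 0 counts in salt 1m and 2m, and 78, 15 and 12 counts in control 1m, 2f and 2m. Most of its reads came from control 1m, 1 of the libraries that stood apart, and its log2 fold changes of -2.51 ± 1.04 in glucose and -2.51 ± 1.23 in salt had adjusted p of 0.761 and 0.232. The channel genes below the filter had between 0 (cnga5) and 55 (cnga3a) counts over the 8 libraries.

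The opsin kinases phosphorylate light-activated opsins. Of 3 tested, 1 (grk1a) was called by edgeR, in glucose against salt, and none in either comparison with control. The gene grk1a, an opsin kinase of the GRK1 type, had 1, 7 and 4 counts in glucose 1m, 2f and 2m, 29 and 74 counts in salt 1m and 2m, and 4, 8 and 13 counts in control 1m, 2f and 2m. As levels these were 0.249 ± 0.191 CPM in glucose (SD, n = 3), 3.78 ± 2.56 CPM in salt (SD, n = 2) and 0.501 ± 0.248 CPM in control (SD, n = 3). Both salt libraries exceeded every other library, salt 2m by more than salt 1m.

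For glucose against salt, grk1a fell by 3.90 on the log2 scale (standard error 0.79, adjusted p = 0.0280, edgeR). That call was lost without glucose 1m (adjusted p = 0.0745), glucose 2f (0.0921) or glucose 2m (0.114). It was also lost without salt 2m (-2.98) and without both libraries that stood apart (-2.99), fits that leave the salt group without a replicate. Salt against control gave 2.88 ± 0.74 with an adjusted p of 0.0537, and 3.11 with an adjusted p of 0.0160 under the replicate block. With the block 2 genes of the set were called higher in salt than in control (5.91% of all tested genes), namely grk1a and rpe65b.

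The cone opsin kinase genes grk7a and grk7b showed contrary values in salt. The gene grk7a had 5, 20 and 9 counts in the glucose libraries, 1 and 0 in the salt libraries and 5, 10 and 18 in the control libraries. Scaled for library totals, the salt level was 0.053 times that of control, with an exact 95% interval of 0.0013 to 0.317 that covers counting error only, and 0.052 times that of glucose (0.00128 to 0.31). In the fit over all libraries the salt difference from control had an adjusted p of 0.0951. The gene grk7b had 1.94, 0.564 and 1.38 CPM in glucose, 2.72 and 9.06 CPM in salt and 1.82, 1.16 and 2.91 CPM in control. Its high value came from salt 2m, and salt 1m lay within the control range (log2 fold change 1.58 ± 0.64, adjusted p = 0.158). The remaining copy, grk1b, had 15 counts in all and none in either salt library.

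**Figure D4:**
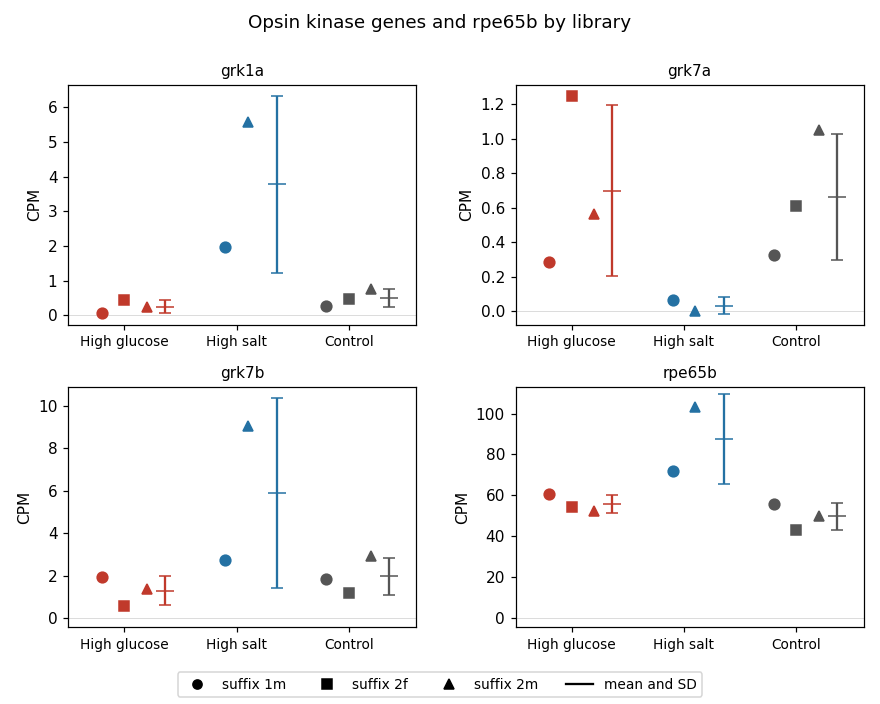
CPM (y axis) of grk1a, grk7a, grk7b and rpe65b by library (points, shaped by column suffix) with the mean and SD of each group beside them. In both salt libraries grk1a and rpe65b are above all other libraries and grk7a is below them; for grk7b only salt 2m, at 9.06 CPM, is above them.

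Recoverin, which restrains opsin kinase in a calcium-dependent way, was represented in the set by rcv1 and rcvrna. The gene rcv1 had 4.51, 3.07 and 2.82 CPM in glucose, 4.08 and 5.28 CPM in salt and 5.4, 5.0 and 5.64 CPM in control. The glucose libraries were all below the control libraries, by a log2 fold change of -0.62 ± 0.30 (adjusted p = 0.761). For rcvrna the groups overlapped, at 1.11 ± 0.0972 CPM in glucose (SD, n = 3), 1.2 ± 0.416 CPM in salt (SD, n = 2) and 1.09 ± 0.917 CPM in control (SD, n = 3). The rule did not take the better covered recoverin row zgc:73075 (symbol RCVRN). It had 4, 8.21 and 6.39 CPM in glucose, 12 and 16.5 CPM in salt and 11.4, 7.32 and 8.32 CPM in control. Both salt libraries were above all others, and edgeR called no difference between groups.

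The arrestins, which block further signalling by phosphorylated opsins, were all below control in salt by their point estimates, with a median of -0.99 on the log2 scale over 4 genes. None passed in edgeR in either comparison with control, nor did any reach an unadjusted p below 0.05. The gene arr3a, the arrestin of red and green cones in zebrafish, had 2.4, 8.46 and 5.64 CPM in glucose 1m, 2f and 2m, 0.272 and 2.79 CPM in salt 1m and 2m, and 1.04, 4.82 and 4.42 CPM in control 1m, 2f and 2m. Its 3 lowest values were those of the 1m libraries, and within each suffix glucose was above and salt below control. For glucose against salt the log2 fold change was 1.85 ± 0.93 with an adjusted p of 0.253, and 1.76 with an adjusted p of 0.0477 under the replicate block. The arrestin of blue and UV cones, arr3b, had 0.893 ± 0.263 CPM in glucose (SD, n = 3), 1.26 ± 0.347 CPM in salt (SD, n = 2) and 1.82 ± 1.25 CPM in control (SD, n = 3), its highest value being control 1m at 3.25 CPM. The rod-type arrestin genes had 0.961 ± 0.525 CPM (saga) and 1.02 ± 0.221 CPM (sagb) in glucose (SD, n = 3), 0.411 ± 0.486 and 0.638 ± 0.155 CPM in salt (SD, n = 2) and 0.733 ± 0.616 and 1.41 ± 0.641 CPM in control (SD, n = 3).

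The 3 guanylate cyclase genes that the rule took had positive fold changes in both treated groups, none of which passed. The rule did not take the better covered cyclase row gc3 (symbol gucy2d). Its mean was 8.41 CPM in glucose, 5.21 CPM in salt and 6 CPM in control, so that salt was below control. For the row GUCY2C (2 of 2) the means were 4.43, 6.07 and 3.39 CPM. The gene gucy2c encodes the receptor for guanylin peptides, known from the intestine and not from photoreceptors. It had 3.94, 2.63 and 3.51 CPM in glucose, 2.72 and 4.07 CPM in salt and 1.37, 0.915 and 1.75 CPM in control. All 5 treated libraries were above the control libraries, with log2 fold changes of 1.32 ± 0.39 in glucose (adjusted p = 0.761) and 1.33 ± 0.43 in salt (adjusted p = 0.0930). The photoreceptor cyclase gene gucy2f showed the same order, with 1.52 ± 0.251 CPM in glucose (SD, n = 3), 1.68 ± 0.0268 CPM in salt (SD, n = 2) and 0.732 ± 0.136 CPM in control (SD, n = 3). Its log2 fold changes of 1.04 ± 0.43 and 1.19 ± 0.48 had adjusted p of 0.761 and 0.155.

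Among the activators, guca1e had 3, 3 and 1 counts in the glucose libraries, 26 and 8 in the salt libraries and 15, 25 and 9 in the control libraries. All glucose libraries were below all others. The log2 fold change was -2.77 ± 0.76 against control (adjusted p = 0.761) and -3.01 ± 0.81 against salt (adjusted p = 0.0625), and the value against salt was -3.31 with an adjusted p of 0.0294 under the replicate block. The other photoreceptor activators had 61 (guca1a), 32 (guca1g), 12 (guca1d), 4 (guca1c) and 1 (guca1b) counts in all.

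The gene rpe65b was the best covered of the set. It had 60.7, 54.3 and 52.4 CPM in glucose 1m, 2f and 2m, 71.9 and 103 CPM in salt 1m and 2m, and 56, 43 and 50.1 CPM in control 1m, 2f and 2m. Both salt libraries were above all others, whereas glucose and control overlapped. The log2 fold change of salt against control was 0.81 ± 0.21 with an adjusted p of 0.0517, and 0.76 with 0.0486 under the replicate block. It ranged from 0.54 to 1.07 over the 16 alternatives and passed in 6 of them. Without both libraries that stood apart it was 0.65 and did not pass, in a fit that leaves the salt group without a replicate. For rpe65c both salt libraries were also the highest, with 5.14, 6.39 and 8.58 CPM in glucose, 10.5 and 17.2 CPM in salt and 9.30, 5.43 and 7.21 CPM in control (salt against control 0.92 ± 0.35, adjusted p = 0.134). The third copy, rpe65a, had 4.22, 6.71 and 6.64 CPM in glucose, 3.12 and 3.70 CPM in salt and 3.90, 6.10 and 3.72 CPM in control, so that for rpe65a the salt libraries were the lowest (-0.42 ± 0.37, adjusted p = 0.506).

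The genes rlbp1a and rlbp1b encode CRALBP, the carrier of retinal, in pigment epithelium and in Müller glia of zebrafish. The gene rlbp1a had 2.4, 2.88 and 3.95 CPM in glucose 1m, 2f and 2m, 2.65 and 9.66 CPM in salt 1m and 2m, and 1.17, 2.62 and 3.49 CPM in control 1m, 2f and 2m. Salt 2m was the highest library and salt 1m lay within the control range, and the salt difference of 1.33 ± 0.59 had an adjusted p of 0.189. The gene rlbp1b had 3.61 ± 1.61 CPM in glucose (SD, n = 3), 2.84 ± 1.53 CPM in salt (SD, n = 2) and 3.06 ± 0.780 CPM in control (SD, n = 3), with overlapping groups. The retinol-binding protein gene rbp4l had 1.13 ± 0.164 CPM in glucose (SD, n = 3), 1.54 ± 0.0639 CPM in salt (SD, n = 2) and 1.58 ± 0.764 CPM in control (SD, n = 3). The pigment list (11 genes of pigment epithelium and other pigment cells) had a summed level of 145, 212 and 225 CPM in glucose, 129 and 242 CPM in salt and 49.3, 174 and 160 CPM in control, with no call in either comparison with control. At an unadjusted p none of the 11 was called in glucose (1.85% higher and 4.12% lower over all tested genes), and 1 was higher in salt (12.4%). The part of pigment cells in the rgra, rpe65b and rlbp1a values was not tested.

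Counting instead the tested genes whose groups did not overlap, 2 were higher and 7 lower in glucose than in control, where 7.13% and 7.67% of all tested genes did so. In salt against control 9 were higher and 9 lower (18.8% and 20.6% of all tested genes), and in glucose against salt 8 were higher and 12 lower (23.6% and 21.2%). As shares of the 43 genes these were 4.65% and 16.3%, 20.9% and 20.9%, and 18.6% and 27.9%. The 7 lower in glucose were rgra, opn5, cngb1a, guca1e, tmtops3a, valopa and rcv1, and of these rgra, opn5 and valopa were also among the 9 lower in salt. Both comparisons use the same control libraries. The share of all tested genes on the same side of control in every treated library was not counted. That holds for the lower genes and for gucy2c and gucy2f, which were higher in both.

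Libraries of one group also differed with the column suffix, and here 2 genes of the set passed. Suffix 2 (2f and 2m) was compared with suffix 1 with group as a term. An earlier analysis of these data had found eye genes to differ with the suffix, which prompted the comparison. Of the 43 genes 2 (4.65%) were higher, arr3a and opn1lw2, where 5.3% of all tested genes were, and none was lower (2.94%). At an unadjusted p 6 were higher and 2 lower (13.7% and 12.3% of all tested genes), DESeq2 called 3 higher and 2 lower (7.63% and 5.36%), and limma voom 3 higher and 1 lower (4.96% and 3.25%). In 8 genes every suffix 2 library was above the 1m library of its group and in 4 below it, against 16.3% and 14.3% of all tested genes.

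The cone arrestin gene arr3a had 8.46, 5.64, 2.79, 4.82 and 4.42 CPM in glucose 2f, glucose 2m, salt 2m, control 2f and control 2m, against 2.4, 0.272 and 1.04 CPM in glucose, salt and control 1m. It rose by 2.08 on the log2 scale (standard error 0.36, adjusted p = 0.00798, edgeR). The call was lost only without both libraries that stood apart (1.53). In that fit the suffixes are compared within glucose alone. The red opsin gene opn1lw2 had 24, 15, 8, 17 and 17 counts in the same 5 libraries, against 3, 0 and 0 counts in the 1m libraries. Over the sums of 81 and 3 counts the scaled ratio was 16.3, with an exact 95% interval of 5.39 to 80.8 for counting error. Its log2 fold change of 3.88 ± 0.84 had an adjusted p of 0.0219 (edgeR), and the call was lost without control 1m (0.0803) or control 2m (0.0517). It was also lost without salt 1m, without salt 2m and without both libraries that stood apart (2.76). Those fits leave the salt group without a replicate, and the last compares the suffixes within glucose alone. For rlbp1a the value was 1.18 ± 0.33 with an adjusted p of 0.0505 (edgeR), and it passed in 5 of 15 alternatives. Other cone genes of the set were not called. The log2 fold change of opn1sw2 was 0.07. The levels of pde6c were 2.74, 2.45 and 2.02 CPM in glucose, salt and control 1m. In the 5 suffix 2 libraries, in the order above, they were 1.69, 1.88, 1.89, 1.04 and 2.15 CPM. The suffix difference was compared between groups through an interaction term, and no gene of the set passed in any of the 3 comparisons (lowest adjusted p of 0.152; 1, 3 and 4 at an unadjusted p below 0.05).

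**Figure D5:**
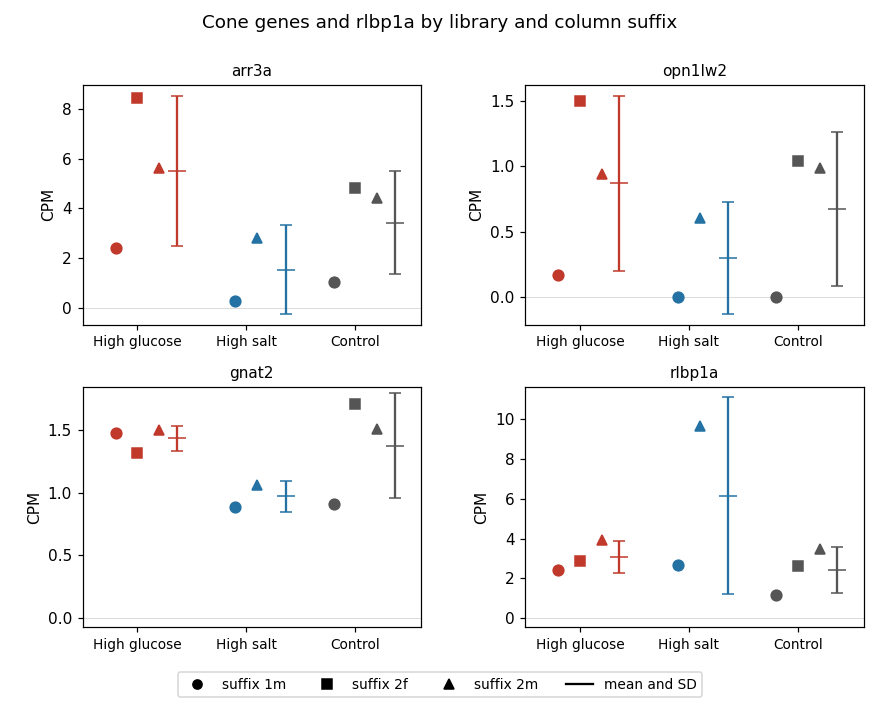
CPM (y axis) of arr3a, opn1lw2, gnat2 and rlbp1a by library (points, shaped by column suffix) with the mean and SD of each group beside them. For arr3a and opn1lw2 the 1m library (circle) is the lowest of its group in all 3 groups, whereas for gnat2 it is not in glucose.

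Other eye and neural genes moved with the suffix as well. Such a difference in eye genes was already known from these data, so the counts below describe it again. Over all tested genes 5.3% were called higher in suffix 2 than in suffix 1 and 2.94% lower. Of 13 tested lens genes 10 were higher in suffix 2 than in suffix 1 (median log2 fold change 2.09), with a summed level of 434, 1210, 437, 341 and 348 CPM in glucose 2f, glucose 2m, salt 2m, control 2f and control 2m, against 277, 135 and 49.7 CPM in glucose, salt and control 1m. Of 10 general neuronal genes 8 were higher (median 0.78), of 19 genes of retinal interneurons, ganglion cells and glia 7 (median 0.65), and of 11 pigment genes 5 (median 1.0). Of the 24 tested photoreceptor markers outside the rule, otx5 and neurod1 were higher and tulp1b was lower, and of 3 tested hatching gland genes 1 was lower. The part of these tissues in the arr3a and opn1lw2 values was not tested. The suffix did not separate rgra (-0.05 ± 0.20, adjusted p = 0.903) or rpe65b (-0.03 ± 0.16, adjusted p = 0.934).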

How the data were processed

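The deposited table gives raw counts per gene (whole numbers) for the 8 libraries with symbols, chromosomes and gene lengths, per the file headers. Named in the submitters' processing notes are featureCounts 1.5.0-p3, StringTie 1.3.3b, edgeR 3.22.5, HISAT2 2.0.5 and DESeq2, and the build GRCz11, with no order or settings. The labels' extraction protocol describes Illumina arrays, whereas the values are sequencing counts and were treated as such. Strand and the handling of shared reads are not given, so copies of a family, and antisense partners, may share reads. The build behind the table's positions was not checked, and only chromosomes are printed.

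Columns were matched to groups by name. A count of 0 was taken to allow up to 3 counts, which stood for 0.171 to 0.226 CPM at library totals of 14.65 M to 17.32 M. Within groups the chi-square over its degrees of freedom was 16.7 to 88.4, far above sampling noise, so none was taken for a duplicate. Counts were fitted with edgeR 4.0.16 (R 4.3.3; TMM, filterByExpr by group, quasi-likelihood F-test, 5 residual degrees of freedom, median biological coefficient of variation 0.28), all 8 libraries in 1 fit, after a test on simulated data. Standard errors are the fold change over the root of F. Same-suffix libraries deviated together, with correlations of 0.14 to 0.471 in all 7 pairs and -0.444 to 0.186 in the 14 others. Deviations were taken from group means, so those of the 2 salt libraries mirror each other and the pairs are not independent. The suffix was also fitted as a replicate block. Other alternatives were DESeq2 1.42.0, limma 3.58.1 voom, other scalings, no filter, the compared groups alone and libraries left out.

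Genes named are those past 0.05, the 3 with the lowest p in each comparison, the highest of each role and a fixed set of opsin and retinoid genes; the rest of those given were chosen after their values were seen. The members and lists were chosen with earlier results of these data known. Members without values of their own are covered by counts and ranges, and some are not reported here.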

Additional observations from a re-analysis of the deposited data

How the results depend on the processing

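Over 12 single-gene results and 187 alternatives, 141 kept their side of the threshold, 22 lost it, 24 gained it and no direction reversed. The 12 were picked by a call or a low p in the chosen fit. The alternatives reuse the same libraries, so few reversals could arise. For glucose against control, 2 genes of the set were lower with DESeq2, without the count filter, with the replicate block, and leaving out control 1m with salt 2m, where the chosen fit gave 0; of all tested genes 0.452%, 0.0592%, 0.156% and 0.0946% were lower there. For salt against control, 1 (DESeq2 size factors), 3 (DESeq2), 2 (no filter) and 2 (replicate block) were higher, with 663, 1435, 686 and 1216 of 20562, 20562, 27021 and 20562 tested genes. On leaving out each library 0 to 3 were higher, where the share of all tested genes ran from 0.164% to 5.66%. In a fit of those groups alone (0.115%) and without both libraries that stood apart (0.766%) 0 were lower. On leaving out each library 0 to 2 were lower (0.0702% to 5.31%). For glucose against salt, 1 was higher with DESeq2 (5.74%), with the block (4.31%) and without both libraries (1.34%). Lower were 6 (DESeq2, 7.05%), 2 (block, 4.72%) and 0 (without both, 2.13%), and 0 to 4 on leaving out each library (0.186% to 6.67%). For suffix 2 against suffix 1, 0 were higher without both libraries (0.397%) and 1 to 3 on leaving out each library (2% to 4.62%). Lower were 2 (DESeq2, 5.36%), 1 (voom, 3.25%) and 2 (no filter, 3.75%), and 0 to 1 on leaving out each library (0.745% to 3.18%). The cause of these shifts was not tested. The replicate block changed no single-gene call other than those given with the genes. Of the 9 visual opsins 7 did not pass the count filter and were not tested.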

Other observations

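Retinoid handling genes that the rule did not take had 1030, 1080 and 1080 CPM summed over 21 genes in glucose 1m, 2f and 2m, 834 and 1040 CPM in salt 1m and 2m, and 1710, 814 and 1010 CPM in control 1m, 2f and 2m. Most of these sums came from rbp4, the retinol carrier gene of blood plasma, with 756, 790 and 790 CPM in glucose, 511 and 597 CPM in salt and 1370, 491 and 692 CPM in control. Of 20 tested, none was called against control in glucose or in salt by edgeR. At an unadjusted p 1 was lower in glucose (4.12% of all tested genes), and 3 were higher and 1 lower in salt (12.4% and 13.5%). In glucose against salt 2 were lower (3.05% of all tested genes): rdh12, a retinol dehydrogenase gene (-1.64, adjusted p = 0.046), and scarb1, a carotenoid and lipid uptake receptor gene (-1.82, adjusted p = 0.0368). The scarb1 level was 12.3, 17.7 and 16.0 CPM in glucose, 25.1 and 82.8 CPM in salt and 18.1, 16.7 and 18.7 CPM in control, so its highest value was that of salt 2m. With the suffix, crabp1b, a retinoic acid carrier gene, was higher in suffix 2 (0.90, adjusted p = 0.0321).

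Of 10 pineal genes 7 were tested. In salt against control 1 was called lower (2.41% of all tested genes) and none higher (2.94%). At an unadjusted p 2 were higher and 1 lower (12.4% and 13.5%). The median log2 fold change was 0.18, with 5 of the 7 above 0. The gene called was asmt2, for a copy of the last enzyme of melatonin synthesis. It fell by 1.62 on the log2 scale (standard error 0.40, adjusted p = 0.0478, edgeR). It had 8.45, 12 and 9.21 CPM in glucose 1m, 2f and 2m, 5.64 and 3.32 CPM in salt 1m and 2m, and 20.4, 10.4 and 10.7 CPM in control 1m, 2f and 2m. Its highest value was that of control 1m, a library that stood apart. Calls of genes in these lists, such as asmt2, rdh12, aipl1 and thrb, were not followed through the alternative fits. Of the 24 tested photoreceptor markers outside the rule, edgeR called 1 higher and 1 lower in glucose than in salt (1.9% and 3.05% of all tested genes). Their median log2 fold change was 0.65, with 17 above 0. The photoreceptor chaperone gene aipl1 was lower in glucose than in salt (-3.40, adjusted p = 0.0322), at 0.114, 0.313 and 0.0627 CPM in glucose against 1.63 and 1.96 CPM in salt. Control had 1.43, 1.53 and 0.640 CPM of aipl1. The thyroid hormone receptor gene thrb, which in zebrafish acts in red cones, was higher in glucose than in salt (1.96, adjusted p = 0.0344), at 16.5, 38.5 and 28.3 CPM against 8.63 and 5.58 CPM; control had 20.4, 12.9 and 25.5 CPM, and the salt difference from control was -1.46 (adjusted p = 0.0693). The ion exchanger gene slc24a2 had 1.60, 4.26 and 3.26 CPM in glucose, 4.14 and 3.62 CPM in salt and 9.43, 8.73 and 8.43 CPM in control; no treated library reached the control libraries, and neither difference passed (adjusted p = 0.576 and 0.109).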
